A study of Mus musculus with 8 samples.

Results

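The outer dense fibre genes Odf1, Odf2, Odf3 and Odf4 were followed through mouse spermatids, the haploid germ cells that become sperm. They were taken by symbol from a table of 16349 genes, and all 4 were present and passed the filter on low values, which 15685 genes passed. RNA had been sequenced from round spermatids and from the later elongating spermatids of C57BL/6 testes, with WT cells and conditional Carm1 knockout (cKO) cells at each stage. The 4 groups, round WT, round KO-labelled, elongating WT and elongating KO-labelled, held 2 libraries each, none of them treated. Each sample pooled cells from 8 testes, fractionated by elutriation. The sources used here name neither the promoter that drove deletion of Carm1 nor the age of the mice. Whether both libraries of a group stem from different mice is not in the labels, and p-values therefore reflect the spread between libraries, which may be technical.

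Outer dense fibres are stiff, cysteine-rich cytoskeletal rods that run along the axoneme in the midpiece and principal piece of the sperm tail. Their proteins are assembled onto the growing flagellum during spermatid elongation and are later cross-linked by disulphide bonds. Odf1 encodes a small-heat-shock-like fibre protein that is also needed to hold head and tail together. Odf2 encodes a coiled-coil protein that is a main building block of the fibres, and other isoforms of the same gene serve at the mother centriole. Odf3 encodes a repeat protein of the tail found along the fibres, and Odf4 a membrane protein of the tail. CARM1 is an arginine methyltransferase, and the study's title places it with p300, the coactivator ACT and the transcription factor CREM.

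Libraries held 17190962 to 23526694 reads. Carm1 (chromosome 9, 21546894 to 21592623, GRCm38) measured 1649 and 1686 normalised reads in the round WT libraries and 1174 and 1343 in the round KO-labelled ones. At the later stage it was at 4308 and 4534 in WT but at 8157 and 7993 in KO-labelled libraries, which is opposite to the direction of a knockout. As a share of reads the difference kept this direction but was smaller, with 0.0143% and 0.0149% in WT against 0.018% in both KO-labelled libraries. The gene total cannot show whether deleted exons are missing, so these libraries are called KO-labelled throughout. Markers of elongating spermatids (Prm1, Prm2, Tnp1, Tnp2) held on average 0.871% (WT) and 0.916% (KO-labelled) of round reads, against 6.61% and 8.12% of elongating reads. Markers of round spermatids (Acrv1, Spaca1, Acr) held 0.0926% and 0.0941%, then 0.0101% and 0.00366%.

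The genes lie on 4 chromosomes. In GENCODE M21 (GRCm38), Odf1 spans chromosome 15, 38219203 to 38226735, and has 1 annotated transcript. Odf2 spans chromosome 2, 29889221 to 29931746, and has 25, so its counts sum the fibre and centriole isoforms. Odf3 spans chromosome 7, 140847805 to 140851018, within an intron of the opposite-strand gene Gm45785. Odf4 spans chromosome 11, 68921835 to 68927081. The library kit does not mark strand. Reads from the opposite-strand small RNA gene Gm23865, which overlaps exons of Odf2, therefore cannot be told apart from those of Odf2. No annotated exon of Gm45785 overlaps an exon of Odf3, so for Odf3 this holds only for reads from unspliced Gm45785 RNA.

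Because the study's title names CREM, which binds cAMP response elements, the promoters were searched for the full element TGACGTCA, its core TGACG (which the full element contains) and the TATA motif TATAAA, on both strands. RefSeq promoters (GRCm38.p6, 250 bases before to 50 after the start) were held for 3 of the 4 members; Odf1 had no entry. The sequences before the start are shown to let the core motifs be seen in place, 5′ to 3′ on the gene's strand, with TGACG in capitals. The Odf2 sequence (chr2:29889470-29889719, plus strand) precedes the most upstream of its 4 RefSeq starts and lies in the first intron of the longest GENCODE span, that of Odf3 (chr7:140847666-140847804, plus strand) ends where its first annotated exon begins, and that of Odf4 is chr11:68927082-68927331, minus strand.
Odf2: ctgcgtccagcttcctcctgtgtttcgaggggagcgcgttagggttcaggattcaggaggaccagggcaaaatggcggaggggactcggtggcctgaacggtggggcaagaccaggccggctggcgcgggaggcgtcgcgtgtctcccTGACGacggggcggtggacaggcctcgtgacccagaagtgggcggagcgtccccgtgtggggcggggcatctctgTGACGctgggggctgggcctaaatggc
Odf3: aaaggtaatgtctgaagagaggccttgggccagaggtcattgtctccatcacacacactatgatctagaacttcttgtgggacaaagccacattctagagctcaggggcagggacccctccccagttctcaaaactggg
Odf4: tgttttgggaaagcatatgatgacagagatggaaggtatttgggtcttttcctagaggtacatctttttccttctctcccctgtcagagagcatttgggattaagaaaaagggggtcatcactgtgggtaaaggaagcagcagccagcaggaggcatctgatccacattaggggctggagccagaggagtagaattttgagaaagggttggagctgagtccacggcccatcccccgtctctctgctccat

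Odf2 held 2 core motifs, whose first bases lie at -102 and -27 from that start, in a stretch of 68.4% G and C. The letters of the core motif were in 20.8% of the 32851 promoters in the table, those of the full element in 1.79% and TATAAA in 13.6%. No window of Odf2, Odf3 or Odf4 held TGACGTCA or TATAAA, and those of Odf3 and Odf4 held no TGACG; such a match describes the letters and not a bound site.

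Levels are normalised read counts, that is, reads divided by the authors' size factor for the library. Odf1 measured 10157 and 10035 in the round WT libraries and 239894 and 236062 in the elongating WT libraries. The stages were far apart, at a log2 fold change of 4.56 (SE 0.03) and an adjusted p of 1.1e-21. This and every adjusted p below are from limma with Benjamini-Hochberg adjustment over all genes tested. Odf2 was already at 55834 and 57167 in round WT cells and reached 369528 and 377125 in elongating WT cells (log2 2.72, SE 0.03, adjusted p = 1.2e-19). Fewer cells of a type and less RNA per cell cannot be told apart in such bulk samples.

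Odf4 followed with a smaller rise, from 2323 and 2326 in round WT to 7055 and 7213 in elongating WT libraries (log2 1.62, SE 0.04, adjusted p = 2.9e-14). Odf3 rose the least, from 3005 and 2839 in round to 4041 and 4218 in elongating WT libraries (log2 0.50, SE 0.05, adjusted p = 1.9e-07). All 4 members were thus called higher in elongating WT cells, where 41.7% of all genes were called higher, 40.2% lower and 81.9% in either direction. What differed was the size: 1.12% of tested genes had a larger log2 value than Odf1, against 11.2% for Odf2, 22.4% for Odf4 and 40.0% for Odf3. Total-count scaling lowered the median of all genes in this contrast from 0.01 to -1.42 and gave 3.09 for Odf1, 1.26 for Odf2, 0.15 for Odf4 and -0.97 for Odf3, so the direction of Odf3 rests on the scaling. Measured against the median gene, the Odf3 difference lay between 0.455 and 0.655 in all 19 settings. A change of scaling moves the median along with the member, so this range does not test the scaling.

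**Figure D1:**
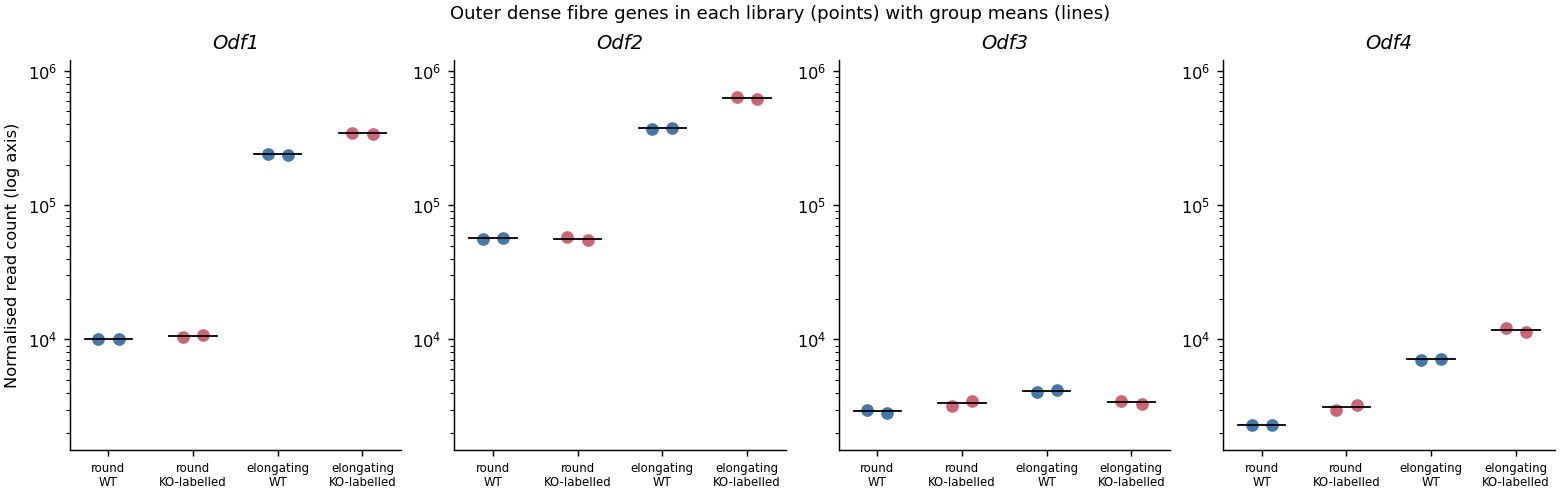
Normalised read counts of Odf1, Odf2, Odf3 and Odf4 (log axis) in the 8 libraries, as points, with the mean of each group as a line. Odf1 and Odf2 rise between stages to 344838 and 640570 at most, while Odf3 stays between 2839 and 4218.

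In KO-labelled cells the stage difference of Odf1 was log2 5.01 (SE 0.03, adjusted p = 2.9e-22) and that of Odf2 3.49 (SE 0.03, adjusted p = 5.2e-21). Odf4 differed by 1.91 (SE 0.04, adjusted p = 2.5e-15). Odf3 did not pass, at 0.03 (SE 0.05, adjusted p = 0.56), so 3 of 4 members were called, all higher, beside 84.3% of all genes (42.6% higher and 41.8% lower). Here total-count scaling moved the median of all genes from 0.01 to -1.87 and left Odf1 at 3.07 and Odf2 at 1.55, both still called. With it Odf4 was at -0.03 (adjusted p = 0.53) and Odf3 at -1.91 (adjusted p = 8.3e-16).

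Odf1 and Odf2 together made up most of the family's RNA. All 4 members summed to 0.652% and 0.659% of the reads of round WT libraries and 0.635% and 0.620% of round KO-labelled ones. At the elongating stage the sum of the 4 was 2.06% and 2.05% in WT, then 2.21% and 2.20% with the KO label. Of the reads of the 4, Odf1 and Odf2 held 90.6% to 92.9% in round and 98.2% to 98.5% in elongating libraries. Odf1 alone held 0.795% and 0.776% of reads in elongating WT and 0.763% and 0.768% in KO-labelled libraries, which is lower in both of the latter. Odf2 went the other way in share, from 1.22% and 1.24% to 1.42% and 1.39%.

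Levels of different genes were compared per kb of annotated exon (the union of all exons). In elongating WT cells Odf1 stood at 215365 ± 2452 (SD, n = 2) normalised reads per kb, Odf2 at 37638 ± 542, Odf4 at 6119 ± 95.6 and Odf3 at 2001 ± 60.5, and neighbours in this order did not overlap. Odf1 ranked 8 of 15698 genes with a length in both elongating groups, and 21 in round WT cells. In round WT cells the order was Odf1 at 9137 ± 77.8, Odf2 at 5696 ± 95.0, Odf4 at 1993 ± 2.19 and Odf3 at 1416 ± 56.8. The exon union of Odf2 is 9919 bases, against 2450 for its median coding transcript. With the latter length Odf2 stood at 23061 ± 385 per kb in round WT cells, above Odf1, and at 152378 ± 2193 in elongating WT cells, below Odf1.

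The study's question was how gene expression changes when Carm1 is lost. In round spermatids, Odf4 was the member that differed most. It measured 2323 and 2326 in WT, then 3004 and 3279 in KO-labelled libraries, or 0.43 on the log2 scale (SE 0.04, adjusted p = 4.1e-06). The groups did not overlap, a separation whose share over all genes was not computed. The value stayed between 0.34 and 0.50 in all 19 settings, each past the threshold. Odf3 was called higher as well, from 3005 and 2839 to 3183 and 3506 (log2 0.19, SE 0.05, adjusted p = 0.0073). Its call ended with total-count scaling (0.10, adjusted p = 0.10), with library sizes that leave out the 50 most abundant genes (0.11, adjusted p = 0.097), without round WT replicate 2 (0.15, adjusted p = 0.10) and without round KO-labelled replicate 2 (0.12, adjusted p = 0.11).

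Odf1 and Odf2 had the smallest differences in round cells. Odf1 measured 10157 and 10035 in WT, then 10422 and 10797 in KO-labelled libraries (log2 0.07, SE 0.03, adjusted p = 0.043). The groups did not overlap, again with no share over all genes computed. The call ended in 10 of 18 alternatives with the direction kept, and in 2 more the direction turned: -0.018 with total-count scaling and -0.016 without the 50 most abundant genes. Leaving out any library other than round KO-labelled replicate 1 ended it (adjusted p = 0.059 to 0.20). Odf2 measured 55834 and 57167 against 57401 and 54820, overlapping groups, and did not pass (log2 -0.01, SE 0.03, adjusted p = 0.82), though it was called lower with total-count scaling (-0.10, adjusted p = 0.0034) and without the 50 most abundant genes (-0.098, adjusted p = 0.0039). With the deposited scaling 3 of 4 members were called, all higher, beside 32.0% of all genes (19.4% higher and 12.6% lower). The split over all genes was 3041 higher and 1977 lower, or 2197 and 3060 with total-count scaling.

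In elongating spermatids Odf2 differed most with the deposited scaling. It rose from 369528 and 377125 in WT to 640570 and 618395 in KO-labelled libraries (log2 0.75, SE 0.03, adjusted p = 1.1e-11). Odf4 rose to a similar degree, from 7055 and 7213 to 12265 and 11402 (log2 0.73, SE 0.04, adjusted p = 2.6e-09). Odf1 rose from 239894 and 236062 to 344838 and 340491 (log2 0.53, SE 0.03, adjusted p = 1.8e-10). In each of these the KO-labelled libraries lay above both WT libraries, a separation whose share over all genes was not computed.

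Odf3 was the exception. It fell from 4041 and 4218 in elongating WT to 3499 and 3329 in KO-labelled libraries (log2 -0.27, SE 0.05, adjusted p = 0.00025). The groups did not overlap, and the share of all genes separated in this way was not computed. All 4 members were called, beside 55.0% of all genes; 3 rose, where 27.3% of all genes did, and 1 fell, where 27.7% did.

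These elongating values depend on how the libraries are set against each other. With total-count scaling the median of all genes moved from -0.07 to -0.61, and the split of calls from 4279 higher and 4348 lower to 1394 and 9854. Odf1 then measured -0.038 (adjusted p = 0.15) and, with library sizes that leave out the 50 most abundant genes, 0.022 (adjusted p = 0.41). Odf2 stayed higher at 0.19 (adjusted p = 2.7e-06) and 0.25 (adjusted p = 1.5e-07), and so did Odf4 at 0.17 (adjusted p = 0.0021) and 0.23 (adjusted p = 0.00019). Odf3 was lower at -0.84 (adjusted p = 4.6e-10) and -0.78 (adjusted p = 1.5e-09), so with both of these scalings Odf3 and not Odf2 differed most. Relative to the median gene, over 19 settings, Odf1 stood 0.525 to 0.612 above it, Odf2 0.75 to 0.84 and Odf4 0.73 to 0.83 above it, and Odf3 between -0.28 and -0.18. Because the median moves with the scaling, these ranges do not test which scaling is right.

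**Figure D2:**
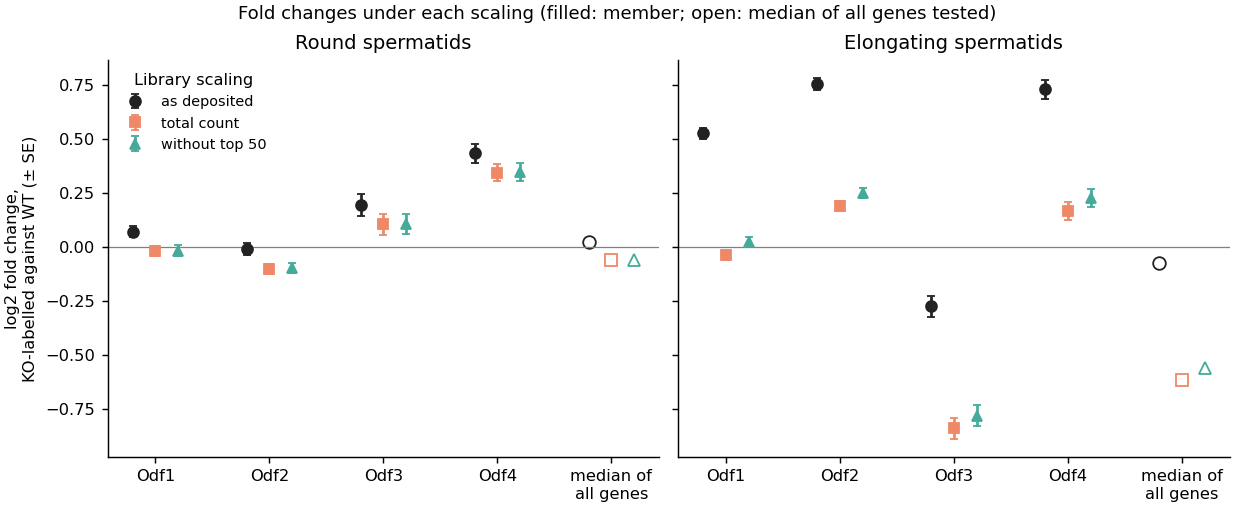
log2 fold changes (± SE) of the 4 members, KO-labelled against WT, in round and elongating spermatids with the deposited scaling, total-count scaling and library sizes without the 50 most abundant genes; open symbols give the median of all genes tested. In elongating cells Odf1 moves from 0.53 to -0.04 with total-count scaling while the median of all genes moves from -0.07 to -0.61.

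The effect of the KO label differed between stages for all 4 members, by the interaction term, 3 with a higher and 1 with a lower effect in elongating cells, beside 36.9% of all genes (19.3% higher and 17.5% lower; 3031 and 2750 genes, or 858 and 7071 with total-count scaling). For Odf2 the effect in elongating cells exceeded that in round cells by log2 0.76 (SE 0.04, adjusted p = 3.3e-09), and for Odf3 it was lower by -0.47 (SE 0.07, adjusted p = 7.9e-05). Both kept direction and call in every one of 17 alternatives. For Odf1 the difference was 0.455 (SE 0.04, adjusted p = 1.3e-07) and for Odf4 0.30 (SE 0.06, adjusted p = 0.0018). With total-count scaling these were -0.02 (adjusted p = 0.64) and -0.18 (adjusted p = 0.018), so neither direction held; without the 50 most abundant genes they were 0.04 (adjusted p = 0.37) and -0.12 (adjusted p = 0.10).

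A ratio of 2 members within a library is free of any library scaling. With 2 libraries against 2 an exact permutation test cannot go below a two-sided p of 0.333, so ratios are given as values. The ratios share members, and how often ratios of other gene pairs keep WT and KO-labelled libraries apart was not computed. In elongating cells the ratio of Odf2 to Odf4 overlapped between genotypes (log2 difference 0.02): 52.4 and 52.3 reads of Odf2 per read of Odf4 in WT, then 52.2 and 54.2 in KO-labelled libraries. Odf1 fell behind Odf2, from 0.649 and 0.626 reads of Odf1 per read of Odf2 in WT to 0.538 and 0.551 in KO-labelled libraries. That is a log2 difference of -0.23, with gaps of 0.05 and 0.03 between libraries of a group. Odf1 also fell behind Odf4, from 34.0 and 32.7 reads per read of Odf4 to 28.1 and 29.9 (-0.20).

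Odf3 fell behind the other 3 in elongating cells. Odf2 gave 91.4 and 89.4 reads per read of Odf3 in WT, then 183 and 186 in KO-labelled libraries (log2 difference 1.03). Odf1 gave 59.4 and 56.0 in WT, then 98.6 and 102 (0.80). Per read of Odf4, Odf3 gave 0.573 and 0.585 in WT, then 0.285 and 0.292 in KO-labelled libraries (a log2 difference of -1.004). None of these groups overlapped.

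In round cells the largest differences in ratio between WT and KO-labelled libraries involved Odf4. Odf1 gave 4.37 and 4.31 reads per read of Odf4 in WT, then 3.47 and 3.29 in KO-labelled libraries (log2 difference -0.36). Odf2 gave 24.0 and 24.6, then 19.1 and 16.7 (-0.44), and Odf3 gave 1.29 and 1.22, then 1.06 and 1.07 (-0.24). Odf2 gave 18.6 and 20.1 reads per read of Odf3 in WT, then 18.0 and 15.6 in KO-labelled libraries (-0.20), and Odf1 gave 3.38 and 3.53, then 3.27 and 3.08 (-0.12). The Odf1 to Odf2 ratio overlapped between WT (0.182 and 0.176) and KO-labelled round libraries (0.182 and 0.197).

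**Figure D3:**
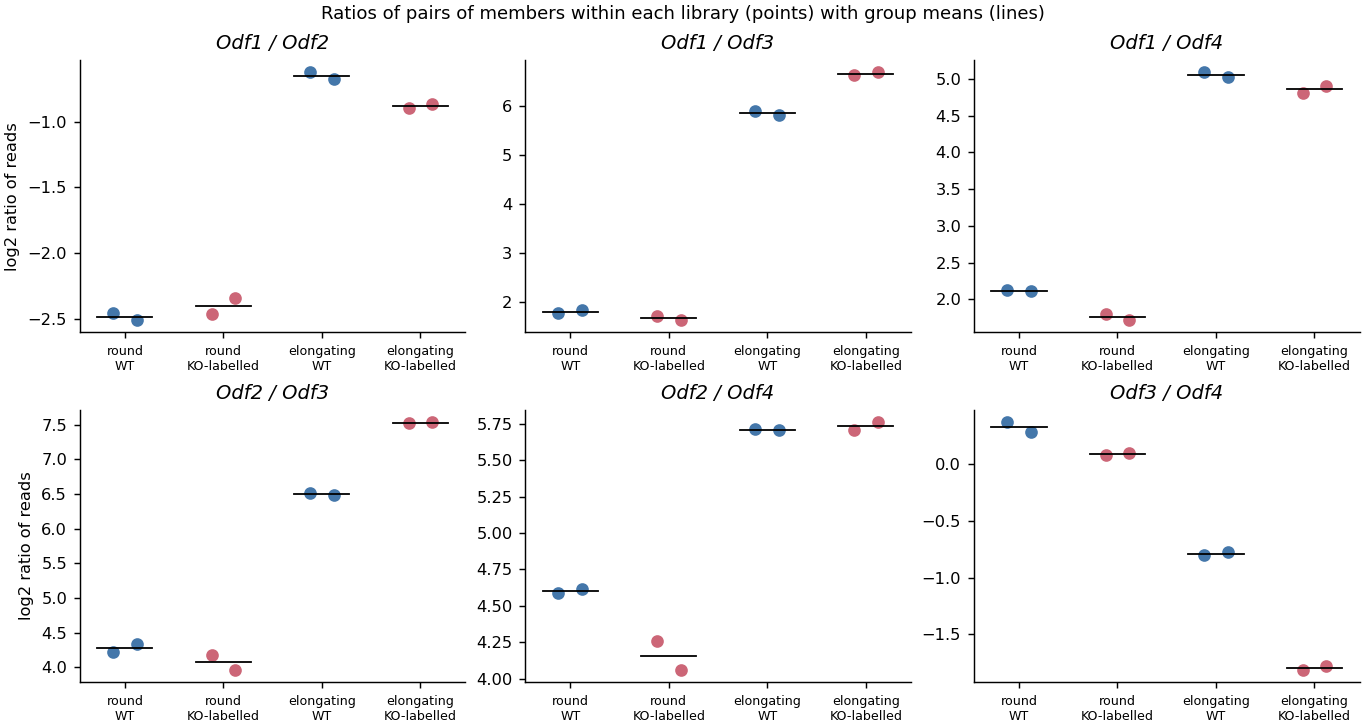
log2 ratios of reads for each of the 6 pairs of members in the 8 libraries (points) with group means (lines); each panel has its own axis. The Odf2 to Odf4 ratio is at 5.71 in both elongating WT libraries and at 5.71 and 5.76 in the KO-labelled ones, while Odf3 to Odf4 falls from -0.80 and -0.77 to -1.81 and -1.78.

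Likeness of pattern was measured as the root mean square difference in log2 level over the 8 libraries after each gene was centred on its own mean. The members were not each other's nearest genes: Odf2 ranked 1070 in likeness to Odf1 (0.845), and of the 6 pairs Odf2 and Odf4 were the closest (0.69) and Odf1 and Odf3 the farthest apart (2.28). Nearest to Odf1 were Neurl1a (0.03), Ubl4b (0.06), Fscn3 (0.06), Oaz3 (0.06) and 1700001O22Rik (0.06). Oaz3, a testis antizyme gene of the polyamine pathway, had group means of 14429 in round WT, 368806 in elongating WT and 480568 in the elongating KO-labelled group. Nearest to Odf2 were Fam220a (0.045), Akap12 (0.05), Ube2j1 (0.05), Pkib (0.06) and Luzp1 (0.06). Akap12, which encodes an anchor of protein kinase A, had group means of 50811, 341378 and 569123 in these groups. Nearest to Odf3 were Cdc42se1, Sema5b, Ndufa7, Adam39 and Tapbp (0.07 to 0.08), and nearest to Odf4 were 1700018B08Rik, Hdac9, Med25, Mrpl47 and Prss40 (0.05 to 0.07).

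Paralogs that share the outer dense fibre name went separate ways. Odf3b, a paralog of Odf3 (chromosome 15, 89377449 to 89379282), measured 267.9 and 266.9 in round WT and 375.2 and 394.4 in round KO-labelled libraries (log2 0.52, SE 0.05, adjusted p = 1.2e-06). In elongating cells it measured 3577 and 3732 in WT, then 9895 and 9624 in KO-labelled libraries (log2 1.42, SE 0.05, adjusted p = 7.2e-12); total-count scaling gave 0.85. Odf3l1, another paralog (chromosome 9, 56848659 to 56864679), fell in elongating cells from 715.5 and 830.6 to 529.5 and 552.4 (log2 -0.51, SE 0.06, adjusted p = 7.2e-06) and was called higher in round cells (0.25, SE 0.06, adjusted p = 0.0078), a call that ended with total-count scaling (0.16, adjusted p = 0.064). Odf2l, the paralog of Odf2 that acts at the centrosome, had log2 fold changes of -0.07 (adjusted p = 0.73) in round and -0.15 (adjusted p = 0.32) in elongating cells, where total-count scaling called it lower (-0.70, adjusted p = 7.7e-05). Of the 4 paralogs listed, 3 were measured; Odf3l2 was not analysed here.

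Genes of neighbouring tail structures were counted in lists chosen for their known place in the tail. In round cells, of 14 genes whose products bind outer dense fibre proteins or hold the connecting piece, 10 rose and 1 fell (median log2 0.17, against 0.03 for all genes tested, of which 19.4% rose and 12.6% fell). Tekt4, a tektin found on the fibres, rose by 0.37, Sun5, a nuclear envelope gene of the head to tail junction, by 0.33, and Klc3, whose kinesin light chain binds ODF1, by 0.33, while Hook1, a linker of microtubules, fell by 0.14. Of 8 fibrous sheath genes 4 rose and 1 fell (median 0.12), with the sperm glycolysis gene Gapdhs at 0.32, the radial spoke associated gene Ropn1l at 0.24 and the main sheath anchor gene Akap4 at 0.18, against -0.21 for Fsip1. With total-count scaling 5 of 14 rose and 2 fell in the first list, and 3 of 8 rose and 2 fell in the second, beside 14.0% and 19.5% of all genes.

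Of 8 mitochondrial sheath genes 4 rose in round cells and 0 fell (median 0.13), beside the same 19.4% and 12.6% of all genes, with Gykl1 at 0.40, the anion channel gene Vdac3 at 0.22 and the peroxidase gene Gpx4 at 0.17. Of 5 tektins, Tekt4 (also counted among the partners) and Tekt2 (0.30) rose and Tekt5 fell (-0.20), with a median of 0.14. Of 4 annulus genes 2 rose and 0 fell, the rises being the septin genes Sept12 at 0.31 and Sept4 at 0.11 (median 0.12); the call of Sept4 ended with total-count scaling (0.02, adjusted p = 0.71). With that scaling the rises and falls were 3 and 0 of 8, 2 and 1 of 5, and 1 and 0 of 4, beside 14.0% and 19.5% of all genes. Lists of 4 or 5 genes are too short to read against such shares.

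In elongating cells, of the 14 partner and connecting piece genes 7 rose and 4 fell (median 0.23, against -0.07 for all genes, of which 27.3% rose and 27.7% fell). Spata6 and Pmfbp1, both needed to join head and tail, rose by 0.91 each and Spatc1, which encodes a centrosomal protein, by 0.62, though with total-count scaling Spatc1 was not called (0.06, adjusted p = 0.13). Tssk4, whose kinase acts on ODF2, fell by 0.70, Tekt4 by 0.64 and the spindle gene Spag5 by 0.63. Of the 8 fibrous sheath genes 5 rose and 2 fell (median 0.26), Gapdhs by 0.95, Akap4 by 0.88 and Spa17 by 0.45 (-0.12 with total-count scaling), against -1.14 for Fsip1 and -0.54 for Ropn1l. With total-count scaling, which called 8.89% of all genes higher and 62.8% lower, 2 of 14 rose and 9 fell in the first list and 2 of 8 rose and 6 fell in the second. The list medians were then -0.33 and -0.305, against -0.61 for all genes, and Spata6 (0.35), Pmfbp1 (0.345), Gapdhs (0.39) and Akap4 (0.31) were still called higher.

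Among 8 mitochondrial sheath genes 4 rose and 2 fell in elongating cells (median 0.085), beside the same 27.3% and 27.7% of all genes. Members were the capsule gene Smcp at 0.65 (0.08 and not called with total-count scaling, adjusted p = 0.12), Spata19 at 0.32 (-0.25 with that scaling), Gykl1 at 0.21 (-0.35 with it), Gk2 at -0.31 and Vdac2 at -0.47. Among 5 tektins 1 rose, Tekt5 (0.20, but -0.365 with total-count scaling), and 4 fell, Tekt4, Tekt1 (-0.365) and Tekt3 (-0.28) the most (median -0.28). Among 4 annulus genes Sept12 (0.77) and Sept4 (0.65) rose and 1 fell, the anion transporter gene Slc26a8 (-0.34), with a median of 0.23. With total-count scaling the rises and falls were 0 and 7 of 8, 0 and 5 of 5, and 2 and 2 of 4, beside 8.89% and 62.8% of all genes. Fsip2 was not analysed here.

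**Figure D4:**
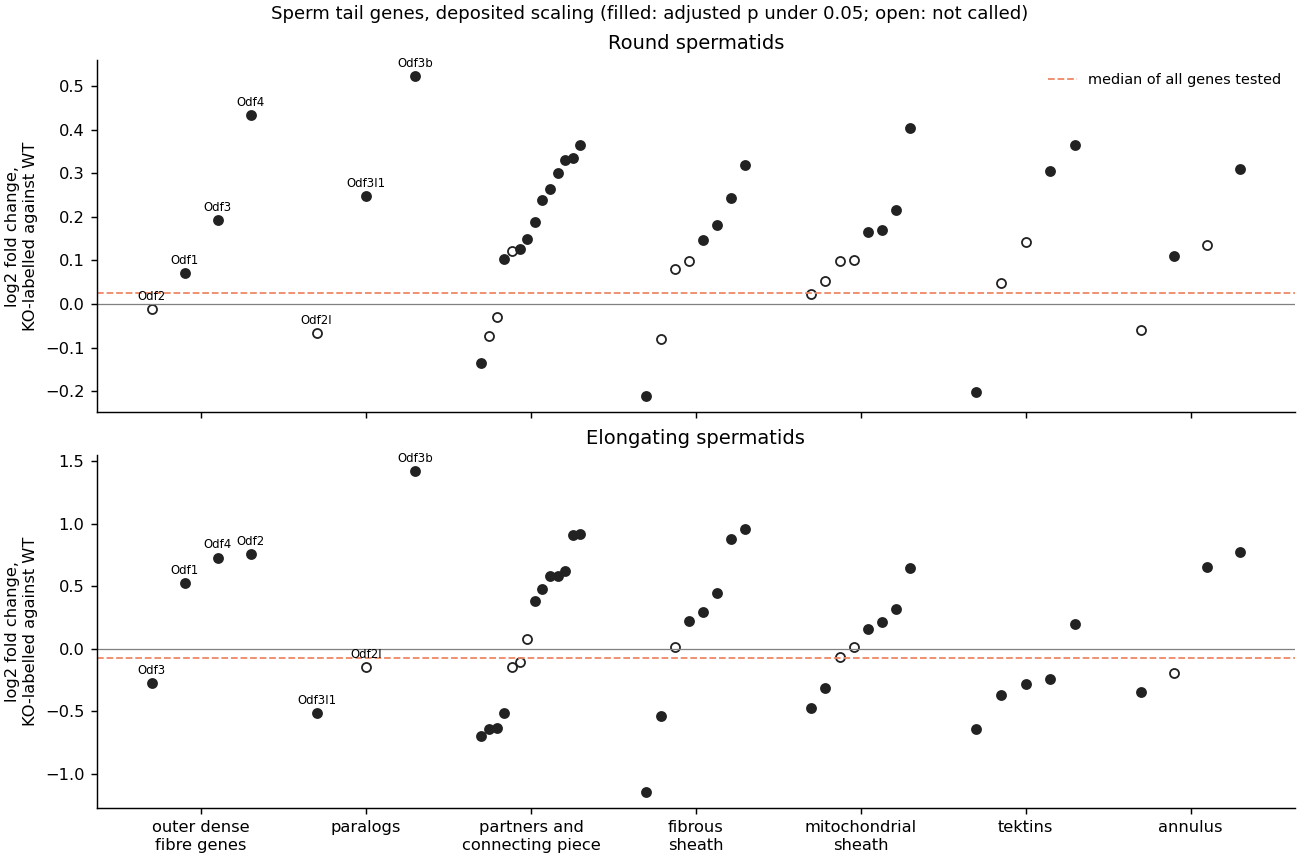
log2 fold changes, KO-labelled against WT with the deposited scaling, of the 4 members, their paralogs and the 5 lists of tail genes in round (top) and elongating (bottom) spermatids; filled points passed an adjusted p of 0.05, and the dashed line is the median of all genes tested. In elongating cells values run from -1.14 (Fsip1) to 1.42 (Odf3b), and Odf1, Odf2 and Odf4 lie between 0.53 and 0.75.

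Markers of cell stages and of other cells moved with the KO label. In elongating cells the summed level of the 4 elongating spermatid markers was 2002289 to 2005004 in WT and 3586866 to 3686722 in KO-labelled libraries, while that of the 3 round spermatid markers was 3044 to 3063 against 1599 to 1680. The 7 macrophage markers summed to 4198 to 4219 against 1745 to 1823, the 5 Sertoli cell markers to 5203 to 5331 against 3840 to 3883, and the 3 peritubular markers to 849.4 to 935.9 against 1674 to 1732. The size of these differences depends on the scaling. As mean shares of reads, macrophage markers held 0.0139% in WT against 0.00399%, Sertoli markers 0.0174% against 0.00862% and peritubular markers 0.00295% against 0.0038%. In round cells the 4 spermatocyte markers summed to 2905 to 3010 in WT and 2122 to 2217 in KO-labelled libraries, and the Sertoli markers to 232.3 to 235.5 against 144.3 to 159.5. Other sets were higher there with the KO label. Macrophage markers summed to 110.7 to 141 in WT against 153.8 to 169.1, and peritubular markers to 143.8 to 162.2 against 163.4 to 185.9. Round spermatid markers summed to 10068 to 10234 against 10910 to 11044, and elongating spermatid markers to 93932 to 97021 against 104204 to 109522. Of 4 Leydig markers 2 were measured, summing to at most 97.0 in any library, and of 3 red blood cell markers 0 were; no measured marker was at 0 in a whole group. Their part in the values of the 4 members was not tested.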

How the data were processed

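RNA was measured in 8 libraries of 4 groups. The submitters' processing notes list DESeq 1.16.0, HTSeq 0.6.0, TopHat2 2.0.10 and CASAVA 1.8.2, and the builds mm10 and GRCm38; their roles, the counting strand and the annotation were not found in the sources. The deposited values are a normalized signal whose steps show whole reads scaled per library by the authors: 100% of values came out whole at a tolerance of 1e-06. The main test was limma 3.58.1 (R 4.3.3, empirical Bayes trend) on log2(value + 1), in one model of 4 group means and 4 residual degrees of freedom. It took genes that reached 10 in 2 or more libraries, with Benjamini-Hochberg adjustment, two-sided, at 0.05. Fold changes on this scale understate those of low genes. Counts of reads recovered from the deposited values went to edgeR 4.0.16 and DESeq2 1.42.0 as alternatives.

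The fit was tested on simulated data. It recovered fewer changed genes than the limit first set, most misses being low genes, and false calls exceeded the nominal rate. The limit was then reset, after that run, to better expressed genes, a range in which all 4 members lie; false calls stayed above the nominal rate there too, so calls near the threshold, such as that of Odf1 in round cells, are weak.

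The members, lists and tests were chosen with earlier results of these data known. Named genes are Carm1, the members and paralogs, up to 3 called genes with the largest rise and up to 3 with the largest fall per list and knockout contrast, any lone gene in its direction, and the 5 genes nearest to each member. Same-numbered WT and KO-labelled libraries of a stage did not deviate together (Pearson r across genes -0.095 in round and -0.021 in elongating cells), so numbers were not used as pairs.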

Additional observations from a re-analysis of the deposited data

Results flagged for a closer look

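For each of the 4 members the effect of the KO label in elongating spermatids differed from that in round spermatids by the interaction term of limma. The differences in log2 fold change were 0.455 for Odf1, 0.764 for Odf2, -0.468 for Odf3 and 0.296 for Odf4. Odf2 was not called in round cells (-0.01) and was higher in KO-labelled elongating cells, and Odf3 was called higher in round and lower in elongating KO-labelled cells. Both round results rest on the deposited scaling: total-count scaling ended the round call of Odf3 (0.104) and called Odf2 lower in round cells (-0.100). With total-count scaling the differences of Odf1 and Odf4 turned to -0.020 and -0.179.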

How the results depend on the processing

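Of 356 alternative values for the 4 members, 322 kept direction and side of the threshold. Every count of genes called in either direction stayed within 1.5 times of its value, but the split into higher and lower did not. For KO-labelled against WT elongating cells it went from 4279 higher and 4348 lower to 1394 and 9854 with total-count scaling. Many of the 356 alternatives cannot move a member's fold change and alter only its p-value. They are the filters, the replicate block, the fit of only the libraries compared and the removal of a library outside the contrast. Odf1 in round cells (0.071) was no longer called with a replicate block (0.071), with only the libraries compared (0.071) or with DESeq2 (0.069), and lay between 0.046 and 0.097 when each library was left out in turn. Total-count scaling gave it -0.018, and library sizes without the 50 most abundant genes -0.016. In the order of these 2 scalings, the other values that turned or crossed the threshold were -0.100 and -0.098 for Odf2 and 0.104 and 0.106 for Odf3 in round cells, and -0.038 and 0.022 for Odf1 in elongating cells. For the difference between stages they were -0.020 and 0.038 for Odf1 and -0.179 and -0.121 for Odf4. For elongating against round cells they were -0.967 and -0.551 for Odf3 in WT, -1.910 and -1.436 for Odf3 in KO-labelled cells, and -0.028 for Odf4 in KO-labelled cells with total-count scaling. edgeR gave -0.127 for Odf3 between KO-labelled stages. Leaving out each library in turn gave -0.043 to 0.023 for Odf2 and 0.124 to 0.263 for Odf3 in round cells, and -0.039 to 0.101 for Odf3 between KO-labelled stages. The cause was not tested. A fit of only the libraries compared could not be made for the difference between stages, which uses all of them. The replicate block changed no other call of a member. Per kb values rest on the chosen gene length. Members had at least 1766 reads in every library.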
